A study of Drosophila melanogaster with 6 samples.

Results

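Aminoacyl-tRNA synthetases, the enzymes that load each tRNA with its amino acid, were examined gene by gene in RNA from a small pool of Drosophila dopamine neurons. They were chosen by symbol alone, as names made of an amino acid abbreviation and RS, with or without the ending -m, plus GluProRS. This gave 33 genes of 17737 in the tables, of which 18 had no ending and are called cytosolic here, and 15 carried -m and are called mitochondrial. The 33 genes were seen patchily: 27 reached 10 counts in at least 1 of the 6 libraries, and AspRS-m alone reached 10 counts in all 6. Between the genotypes, the fitted difference was furthest above 0 for SerRS-m, which had 10 to 5004 counts in Stromalin KD and none in control. It was furthest below 0 for CysRS-m, which had none in Stromalin KD or in control 1. Each was fitted only because of counts in the group where it was high, so the direction was built in. Their adjusted p in edgeR was 0.683 and 0.809.

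A synthetase activates its amino acid with ATP and joins it to the matching tRNA, and the charged tRNA is then carried to the ribosome by an elongation factor. Proteins made in the cytosol and proteins made inside mitochondria need separate sets of charged tRNAs, so most amino acids have a gene for each compartment, both in the nuclear genome. Some genes serve both compartments, as is known for human GlyRS and LysRS. Neurons rely on both sets, and mutations in human synthetase genes of either kind cause disorders of the nervous system.

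GFP-marked PPL1-γ1pedc dopamine neurons, which innervate the heel of the mushroom body, were hand-picked from larvae of the 3rd instar at 120 h after egg laying, 25 neurons per library. Both groups carried ∆TH-D'-GAL4, which drives expression in few dopamine neurons, together with UAS-mCD8:GFP and UAS-dicer2. The Stromalin KD group (3 libraries) also expressed UAS-Stromalin RNAi, and the control group (3 libraries) the matching control in its place. Each library pooled neurons from many brains of unstated sex and was collected on its own day, with the genotypes in alternation. Knockdown of the cohesin subunit Stromalin was compared with control to learn which transcripts it changes in these neurons.

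Libraries held 7790921 to 9625056 counts in genes, of which genes with rRNA symbols took 16.6% to 30.3%. Between 2298 and 4004 genes reached 10 counts in a library, the most in control 2. The targeted gene, SA, had 1372 counts in control 3, 3 in Stromalin KD 1 and none in the remaining libraries. Controls 1 and 2 were thus at 0 like Stromalin KD 2 and 3, so that SA cannot check the labels. All 4 dopamine markers and all 6 neuronal markers reached 10 counts in every library. Among 6 glial markers, repo, alrm and wrapper were at 0 everywhere. The marker nrv2 reached 3824 counts in control 2, 1187 in Stromalin KD 1 and 728 in Stromalin KD 2. Gs2 had 430 counts in Stromalin KD 1 and moody 62 in control 3. The glial list summed to 0.272 to 339 TPM in control, against 0 to 159 in Stromalin KD. Among 8 fat body and blood markers, Hml, NimC1 and ppl were at 0 everywhere. Lsp1gamma, Lsp1beta, Lsp2 and Fbp1 had 5593, 2155, 954 and 924 counts in control 2. In Stromalin KD 3, Lsp1beta had 5686 and srp 319, and Fbp1 had 88 in Stromalin KD 2. The list summed to 0 to 1163 TPM in control, against 0.217 to 756 in Stromalin KD. Control 2 had 4 of these 8 at 10 counts or more, the most of any library, and it was also the library with the most synthetases. The neuroblast and Kenyon cell lists overlapped between the groups, at 0 to 8.41 and 105 to 1339 TPM in control, against 0 to 31.0 and 278 to 392 in Stromalin KD. The list of 8 markers of other transmitters did not overlap, at 0 to 13.4 TPM in control, against 59.1 to 260.8 in Stromalin KD. Of these 8, ChAT, Gad1, Tdc2 and Trh were at 0 everywhere, VGAT, which loads GABA into vesicles, reached 500 to 1762 counts in each Stromalin KD library and 112 in control 1 with none in controls 2 and 3, and SerT, VAChT and VGlut were each seen in a single Stromalin KD library, at 786, 486 and 7 counts. The part of other cells in the synthetase values was not tested.

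Most synthetases were read from few libraries, and a gene absent from 1 library was often among the strong genes of the next. Of the 33 genes, 29 had at least 1 count somewhere. TrpRS, AlaRS-m, GluRS-m and IleRS-m had 0 counts in all 6 libraries, which at these depths allows up to 0.312 to 0.385 CPM per library (3 counts, counting error only). With found meaning 10 counts or more, 5 genes were found in 1 library, 11 in 2, 7 in 3, 2 in 4, 1 in 5 and 1 in 6. For the genes with a count, the median share of a gene's counts that came from its top library was 86.9%, against 83.4% over all 6922 genes with a count. Taken over every gene and library, the synthetases were found in 67 of 198 pairs. Leaving out the genes with no count at all, this was 38.5% of pairs, below the 43.6% over all genes with a count, a comparison given with no test. Where synthetases were found, the median was 328 counts. In bulk RNA, fewer cells that express a gene and less RNA per cell cannot be told apart, and in pools this small a missed capture cannot be told apart from either.

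**Figure D1:**
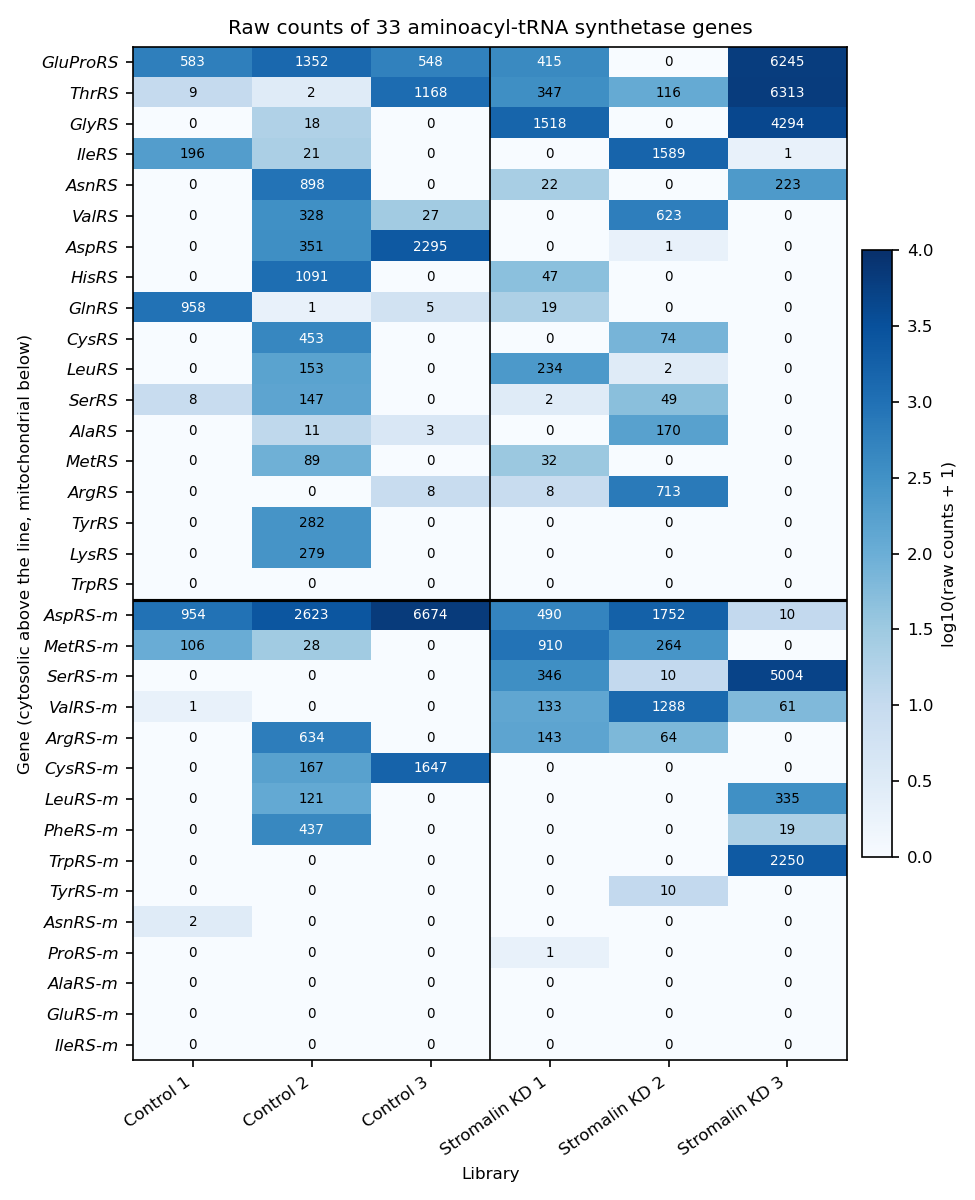
Raw counts of the 33 synthetase genes (rows, cytosolic above mitochondrial) in the 3 control and 3 Stromalin KD libraries (columns), with color on a log10(count + 1) scale and the count in each cell. AspRS-m is the only row with 10 counts or more in every column, and control 2 is the column with the most genes found, 20 of 33.

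Control 2 carried much of the cytosolic set. The number of synthetases found was 5, 20 and 6 in controls 1 to 3, against 13, 13 and 10 in Stromalin KD 1 to 3, a mean of 10.3 ± 8.39 (SD, n = 3) in control, against 12.0 ± 1.73 in Stromalin KD. The control libraries thus spanned the Stromalin KD ones on both sides. The same libraries ranked much alike over all genes, where 36.6%, 57.8% and 33.2% of the genes with a count were found in controls and 53.9%, 46.2% and 34.0% in Stromalin KD. Of the 29 genes with a count, 9 had their top library in control 2, 6 in Stromalin KD 2, 6 in Stromalin KD 3 and the other 8 in the remaining libraries. LysRS and TyrRS were seen in control 2 alone, at 279 and 282 counts.

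At the limit of 10 counts, cytosolic and mitochondrial genes were found at similar rates once the genes with no count were set aside. Cytosolic genes were found in 40 of 108 pairs (37.0%) and mitochondrial genes in 27 of 90 (30.0%). Among genes with a count the shares were 39.2% and 37.5%. This leaves out 1 cytosolic and 3 mitochondrial genes that were never seen, which by itself brings the shares closer. All but 1 of the 18 cytosolic genes were found somewhere, and 10 of the 15 mitochondrial ones. Per library, 3, 14 and 4 cytosolic genes were found in control, against 8, 7 and 4 in Stromalin KD. The mitochondrial counts were 2, 6 and 2 in control, against 5, 6 and 6 in Stromalin KD, so that Stromalin KD 3 and control 2 had equal numbers of mitochondrial genes but 4 against 14 cytosolic ones. Without control 2 the cytosolic share fell to 28.9% and the mitochondrial share was 28.0%. Among genes with a count, the median over genes of the mean TPM was 18.2 in the cytosolic class and 15.9 in the mitochondrial class, against 26.3 over all genes. These shares are given as a description, with no test, since the genes of a library share its depth and capture.

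**Figure D2:**
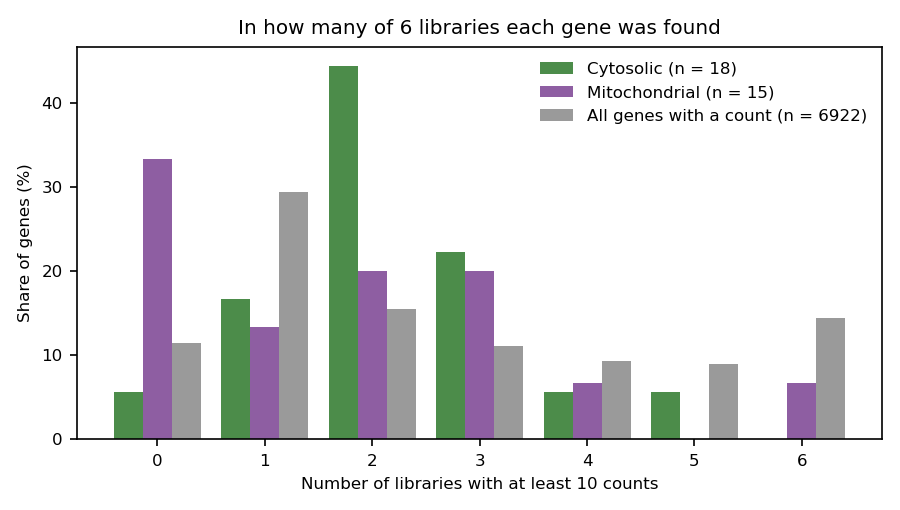
Share of genes (vertical axis, percent) by the number of libraries in which the gene reached 10 counts (horizontal axis, 0 to 6), for 18 cytosolic synthetases, 15 mitochondrial synthetases and the 6922 genes with a count. Mitochondrial synthetases were more often found nowhere (5 of 15 against 1 of 18). In all 6 libraries were found 14.5% of the genes with a count and 3.03% of the 33 synthetases, which include 4 with no count. Over all 17737 genes, with or without a count, this share was 5.64%.

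Longer genes tended to be found in more libraries. Across the 33 genes, Spearman's rho between total exon length and the number of libraries found was 0.637, given as a description over genes that share the 6 libraries. Exon lengths ran from 1482 to 5453 bases, with medians of 2500 in the cytosolic and 2552 in the mitochondrial class. GluProRS, the longest, was found in 5 libraries.

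The summed level differed between classes by less than it differed between libraries. In TPM, which is per length, cytosolic synthetases summed to 180, 597 and 534 in controls 1 to 3, against 272, 342 and 1818 in Stromalin KD 1 to 3. Mitochondrial synthetases summed to 78.3, 392 and 800 in control, against 166, 283 and 1073 in Stromalin KD. The ratio of cytosolic to mitochondrial sums was 2.29, 1.52 and 0.668 in control, against 1.63, 1.21 and 1.69 in Stromalin KD, with a median of 1.58 and an SD of 0.540 over the 6 libraries. In TPM control 3 alone had the mitochondrial sum above the cytosolic one. With normalized counts the ratio was under 1 in control 3 (0.487) and Stromalin KD 2 (0.985), and without the highest gene of each class it was 1.44 in control 3, 0.972 in Stromalin KD 3 and 21.0 in control 1. The 33 genes together had 860 ± 549 TPM (SD, n = 3) in control, against 1318 ± 1365 in Stromalin KD, and the groups overlapped.

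**Figure D3:**
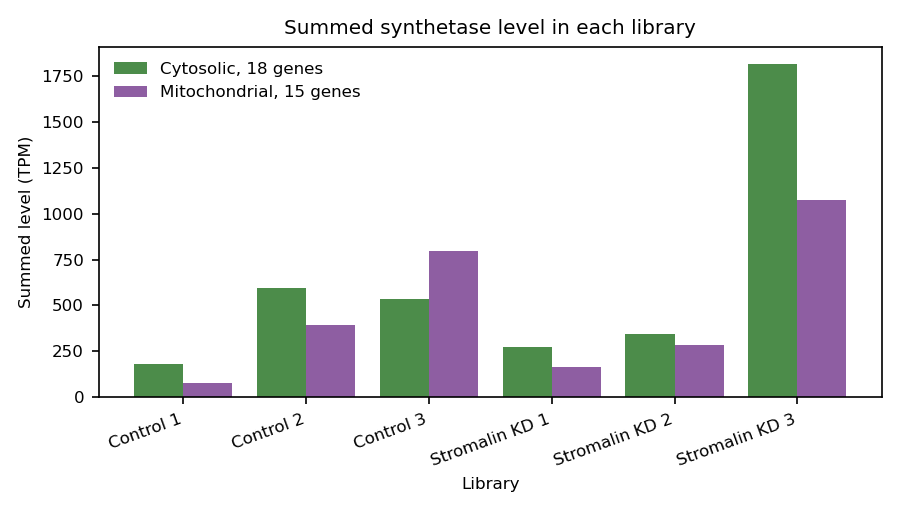
Summed TPM of cytosolic and mitochondrial synthetases in each of the 6 libraries (bars start at 0). The cytosolic sum was above the mitochondrial one in every library but control 3, and Stromalin KD 3 had the highest sums of both classes, 1818 and 1073 TPM.

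A sum was mostly 1 or a few genes, and those genes changed from library to library. In the cytosolic class the leading gene was GlnRS in control 1 (70.3% of the sum), HisRS in control 2 (20.2%), AspRS in control 3 (66.1%), GlyRS in Stromalin KD 1 (66.3%), IleRS in Stromalin KD 2 (38.0%) and ThrRS in Stromalin KD 3 (42.7%). In the mitochondrial class AspRS-m led in controls 1 to 3 with 89.2%, 48.0% and 65.9% and in Stromalin KD 2 with 44.7%. MetRS-m led in Stromalin KD 1 with 38.3% and SerRS-m in Stromalin KD 3 with 65.1%. The leading gene took the smallest share in the cytosolic set of control 2.

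AspRS-m, which charges mitochondrial tRNA with aspartate, was the most regularly found member. Its counts were 954, 2623 and 6674 in controls 1 to 3, against 490, 1752 and 10 in Stromalin KD 1 to 3. Its level was 262 ± 237 TPM in control, against 53.6 ± 65.2 in Stromalin KD (SD, n = 3 each), and the groups overlapped. In edgeR its log2 fold change, with Stromalin KD over control, was -2.48 (SE 1.94, unadjusted p = 0.202; exact permutation p = 0.2). It was -1.35 without control 3 and -3.78 without Stromalin KD 2. The gene lies on chromosome 2L of BDGP6 at positions 16827078 to 16832093, plus strand, in 8 exon blocks, and 29 of its exon bases lie opposite CG13282.

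GluProRS, found in 5 libraries, and ThrRS, found in 4, were the most regularly found cytosolic genes. GluProRS, a fused enzyme that charges tRNAs for both glutamate and proline, had 583, 1352 and 548 counts in control, against 415, 0 and 6245 in Stromalin KD. All controls held it, while Stromalin KD 2 had none and Stromalin KD 3 the most of all. Its level was 49.4 ± 25.2 TPM in control, against 144 ± 229 in Stromalin KD, with a log2 fold change of 1.48 (SE 2.28, unadjusted p = 0.515 in edgeR) that turned to -2.00 without Stromalin KD 3. ThrRS, for threonine, had 9, 2 and 1168 counts in control, against 347, 116 and 6313 in Stromalin KD. Only control 3 overlapped the Stromalin KD range. Its level was 47.3 ± 80.9 and 275 ± 434 TPM, and its log2 fold change 2.38 (SE 2.51, unadjusted p = 0.341 in edgeR). This turned to -1.02 without Stromalin KD 3 and was 8.50 without control 3 (unadjusted p = 0.0199 in edgeR). ThrRS lies on 2L at 12103751 to 12107170, plus strand, and GluProRS on 3R at 23952136 to 23958391, minus strand, where 905 of its exon bases face asRNA:CR46092, which had 4 counts in control 1.

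GlyRS, for glycine, completed the 3 cytosolic genes with the highest mean TPM. It had 0, 18 and 0 counts in control, against 1518, 0 and 4294 in Stromalin KD, so that Stromalin KD 2 lay with the controls. Its level was 0.747 ± 1.29 TPM in control, against 260.2 ± 308 in Stromalin KD. The log2 fold change was 8.58 (SE 3.94, unadjusted p = 0.0296, adjusted p = 0.809 in edgeR; adjusted p = 0.0990 in DESeq2; exact permutation p = 0.4). Without Stromalin KD 3 the log2 fold change was 7.18 (unadjusted p = 0.185 in edgeR), and without control 2 it was 13.93. GlyRS is a gene of 1 exon on 3L at 15095142 to 15097686, plus strand.

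**Figure D4:**
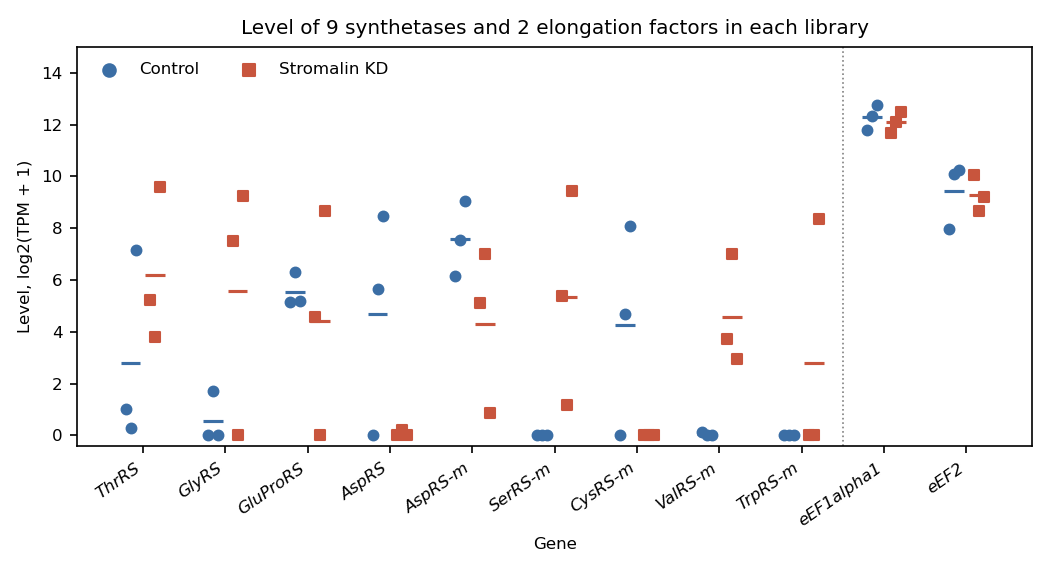
Levels as log2(TPM + 1) of 9 synthetases and of the elongation factors eEF1alpha1 and eEF2 in control and Stromalin KD libraries; points are libraries and bars the mean of the log2 values (n = 3). The elongation factors lie high in all 6 libraries, while each synthetase has at least 1 library at or near 0.

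SerRS-m and ValRS-m were the only members whose groups did not overlap. SerRS-m, for serine, had 346, 10 and 5004 counts in Stromalin KD and none in control, a mean level of 247 ± 391 TPM in Stromalin KD. Against 3 counts over the control group it was at least 1785-fold higher in these libraries, and at least 169.5-fold without Stromalin KD 3. Its fitted log2 fold change was 13.87 (SE 4.80, unadjusted p = 0.00384, adjusted p = 0.683 in edgeR; adjusted p = 0.00698 in DESeq2; exact permutation p = 0.1, the smallest possible). Without Stromalin KD 3 it was 10.49 (unadjusted p = 0.0640 in edgeR). ValRS-m, for valine, had 1, 0 and 0 counts in control, against 133, 1288 and 61 in Stromalin KD, or 0.033 ± 0.0572 and 48.4 ± 67.5 TPM. Its log2 fold change was 9.68 (SE 6.20, unadjusted p = 0.118 in edgeR; adjusted p = 0.0257 in DESeq2; exact permutation p = 0.1), and 7.52 without Stromalin KD 2. Both genes passed the count filter through the Stromalin KD libraries alone, where they were high, so a difference in that direction was built into their being fitted. The summed level of the markers of other transmitters was likewise higher in each Stromalin KD library than in any control. Taken singly, VGAT alone of these markers was so, and their part in these values was not tested. Over all 4093 genes fitted, the groups of 6.62% did not overlap, against 2 of the 22 synthetases fitted.

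AspRS and CysRS-m were the members with the lowest fold changes. AspRS, the cytosolic enzyme for aspartate, had 0, 351 and 2295 counts in control, against 0, 1 and 0 in Stromalin KD, or 134 ± 192 and 0.047 ± 0.0814 TPM. Control 1, at 0, overlapped the Stromalin KD libraries. The log2 fold change was -11.20 (SE 5.70, unadjusted p = 0.0494, adjusted p = 0.809 in edgeR; adjusted p = 0.0257 in DESeq2; exact permutation p = 0.4). CysRS-m, for cysteine, had 0, 167 and 1647 counts in control and none in Stromalin KD, at least 707-fold lower against 3 counts over the Stromalin KD group and at least 73.7-fold without control 3. Its level in control was 99.3 ± 151 TPM, and its fitted log2 fold change -12.40 (SE 6.14, unadjusted p = 0.0434, adjusted p = 0.809 in edgeR; adjusted p = 0.0270 in DESeq2; exact permutation p = 0.4). Both passed the count filter through controls 2 and 3 alone, where they were high, and without either of these the genes were below the count filter and could not be fitted.

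TrpRS-m, for tryptophan, was among the 3 mitochondrial genes with the highest mean TPM on the strength of 1 library. It had 2250 counts, or 323 TPM, in Stromalin KD 3 and 0 in the other 5, and was not fitted. SerRS-m lies on 3R at 15340667 to 15343218 (plus strand, 1 exon), ValRS-m on 3L at 8961274 to 8964769 (minus strand), AspRS on 2R at 12877004 to 12883168 (plus strand), CysRS-m on 2R at 14159096 to 14161262 (minus strand) and TrpRS-m on 3L at 17849727 to 17852453 (plus strand). SerRS-m shares 356 exon bases with Nagk and CysRS-m 302 with CG13016, each on the opposite strand, and both neighbors had 0 counts in all libraries. AspRS faces asRNA:CR45141 over 1448 of its exon bases and shares 154 with asRNA:CR43468 on its own strand, both at 0 counts in all libraries. It also faces Nmda1 over 127 bases, and Nmda1 had 526 to 3082 counts in every library, including those with AspRS at 0. The counting was done with a strand setting not given in the sources used here.

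Across the fitted synthetases, as many fold changes were above 0 as below. At least 10 counts in at least 2 libraries were reached by 22 of the 33 genes (14 cytosolic and 8 mitochondrial), and 11 had a higher and 11 a lower fitted level in Stromalin KD. The median log2 fold change was -0.23, beside 0.07 over all 4093 genes, with a range of -12.40 to 13.87. The median size of the log2 fold change, sign aside, was 2.54 in synthetases and 1.59 in all genes, and the median SE was 4.45 against 3.79. By class the median was -0.23 in cytosolic and 0.17 in mitochondrial genes. In edgeR 0 synthetases had an adjusted p under 0.05, beside 0.0489% of all genes. At an unadjusted p under 0.05, SerRS-m and GlyRS were higher, beside 1.64% of all genes, and AspRS and CysRS-m lower, beside 1.59%. DESeq2 gave an adjusted p to 11 synthetases and called SerRS-m and ValRS-m higher, beside 3.14% of the 2930 genes with one, and AspRS and CysRS-m lower, beside 2.32%. The members were chosen as a family with these results in view, so the counts describe the family and carry no test. SerRS-m, ValRS-m, AspRS and CysRS-m were also the 4 of the 22 that passed the count filter through 1 group only.

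**Figure D5:**
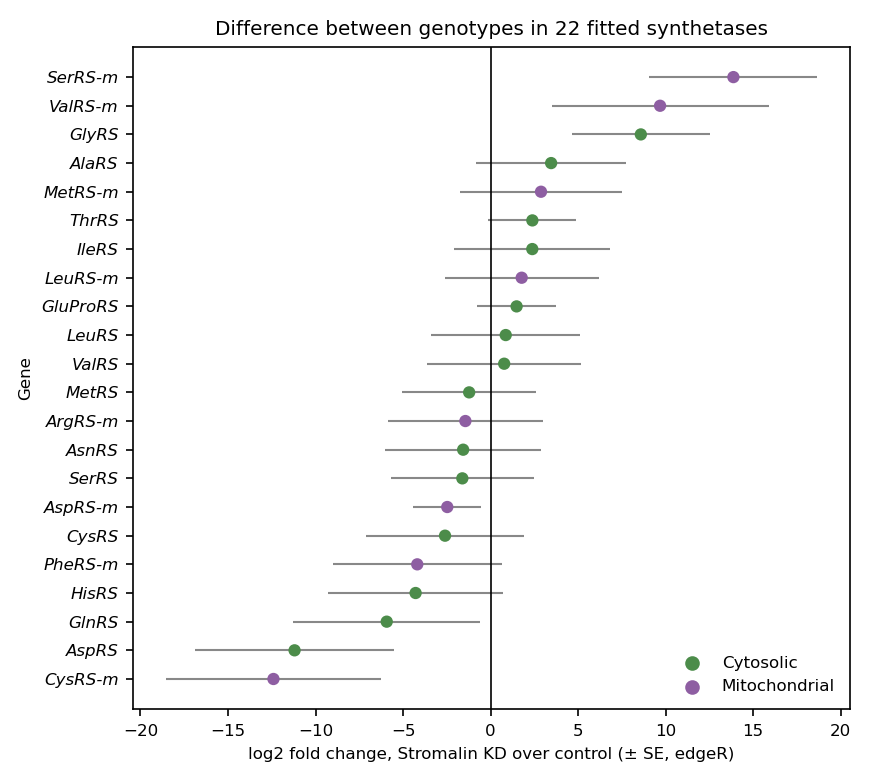
Log2 fold change, Stromalin KD over control, with its SE from edgeR, for the 22 fitted synthetases by class (n = 3 per group). The values span -12.40 to 13.87, with 11 on each side of 0, and no gene has an adjusted p under 0.05.

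Most genes that were found at all were found in both genotypes. Of the 27 genes found, 18 were found in both groups, 4 in control alone and 5 in Stromalin KD alone. The share in both was 66.7%, near the 59.7% over the 6127 genes of the table that were found. In control alone the share was 14.8%, beside 18.8% over those 6127 genes, and in Stromalin KD alone 18.5%, beside 21.4%. Among cytosolic genes 13 were found in both groups, 3 in control alone and 1 in Stromalin KD alone. Among the 10 mitochondrial genes found, these numbers were 5, 1 and 4, and the classes were not tested against each other. LysRS and TyrRS, for lysine and tyrosine, were found in control 2 alone, with controls 1 and 3 at 0 like the Stromalin KD libraries. Against 3 counts over the Stromalin KD group they were at least 82.1-fold and 83.0-fold lower there. These bounds rest on 1 control library, and neither gene was fitted. The other cytosolic members with counts had 10 counts or more in 1 to 3 libraries each, with top values from 89 counts (MetRS) to 1589 (IleRS). HisRS, for histidine, reached 1091 counts in control 2, where Bx, which overlaps it over 255 bases on the same strand, had 1606. Bx was at 0 elsewhere, also in Stromalin KD 1, where HisRS had 47 counts. MetRS-m had 106, 28 and 0 counts in control, against 910, 264 and 0 in Stromalin KD, a library without it in each group. ArgRS-m reached 634 counts in control 2 and shares 325 bases with mRpS9 on the opposite strand, which had 74 counts there. LeuRS-m and PheRS-m topped at 335 and 437 counts, TyrRS-m at 10, and AsnRS-m and ProRS-m at 2 and 1.

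The cytosolic and mitochondrial genes of 1 amino acid were seldom found together, but the genes of each kind were seldom found at all. Over all members, the shares of gene and library pairs found were 37.0% and 30.0%. Whether both were found together less often than such rates would give was not tested. Genes were paired by the same stem with and without -m. This leaves out glutamate, proline and phenylalanine, whose cytosolic genes are GluProRS, alpha-PheRS and beta-PheRS and whose mitochondrial genes are GluRS-m, ProRS-m and PheRS-m. The remaining 12 amino acids with a gene of each kind gave 72 pairs of genes in a library. Both genes were found in 9 of these, the cytosolic gene alone in 14, the mitochondrial gene alone in 16 and neither in 33. By mean TPM the cytosolic gene was higher for 5 amino acids and the mitochondrial gene for 7. AspRS-m was above AspRS in 6 of 6 libraries in TPM, also in control 3, where AspRS reached 354 and AspRS-m 527. For alanine, asparagine and isoleucine only the cytosolic gene was found, in 2, 3 and 3 libraries. For tryptophan only the mitochondrial gene was found. SerRS and SerRS-m were found together only in Stromalin KD 2, with 49 and 10 counts.

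No library held the full cytosolic set. Counting an amino acid as covered where its cytosolic enzyme was found (both alpha-PheRS and beta-PheRS for phenylalanine, GluProRS for glutamate and proline), 4, 16 and 5 of 20 amino acids were covered in controls 1 to 3, against 9, 7 and 5 in Stromalin KD 1 to 3. Of the cytosolic genes, 6 had no symbol of the same stem ending in -m (GlnRS, GluProRS, GlyRS, HisRS, LysRS and ThrRS). They were found in 47.2% of pairs with libraries, and the other 12 in 31.9%. The medians of mean TPM were 59.0 and 9.88. GluProRS was among the 6 by symbol alone, since its amino acids do have GluRS-m and ProRS-m. It was found in 5 libraries with a mean of 96.5 TPM, and so raised both figures of the 6. The 8 enzymes that form a multisynthetase complex in mammals were found in 37.5% of pairs and the other 10 cytosolic genes in 36.7%. By the fold of the catalytic domain, the 18 class I genes were found in 29.6% of pairs and the 14 class II genes in 35.7%. The fused GluProRS was left out of both classes. These differences were not tested.

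A few cytosolic elongation factor genes, whose proteins take the charged tRNAs onward, were found in every library, while others were as patchy as the synthetases. Of 25 other genes of aminoacylation and tRNA delivery, eEF1alpha1, eEF1alpha2, eEF1gamma and eEF2 were found in all 6 libraries, whereas eEF1beta reached 6 counts at most and eEF1delta was found in 2 libraries. eEF1alpha1, which brings charged tRNA to the ribosome, had 3571, 5214 and 7004 TPM in control, against 3241, 4420 and 5803 in Stromalin KD, a log2 fold change of -0.35 (SE 0.41, unadjusted p = 0.393 in edgeR). Relative to its mean, its spread within each group was smaller than that of the synthetases described singly above, and the groups overlapped. eEF2, which moves the ribosome along, had 854 ± 527 TPM in control, against 684 ± 340 in Stromalin KD (SD, n = 3 each; log2 fold change -0.32, SE 0.96). The list as a whole was found in 58 of 150 pairs (38.7%), and 6 of its genes were found nowhere. Of its 13 fitted genes 3 had a higher and 10 a lower fitted level, and 0 had an unadjusted p under 0.05 in edgeR or were called by DESeq2.

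The partners of the synthetases were also read from few libraries. The subunits of cytosolic PheRS were found in control 2 alone, at 1071 counts for alpha-PheRS and 750 for beta-PheRS. The scaffold genes AIMP1, AIMP2 and AIMP3 were found in 8 of 18 pairs. For the mitochondrial amidotransferase, which makes glutaminyl-tRNA from glutamyl-tRNA, GatA and GatC had 0 counts in all libraries and GatB had 2953 in control 3, 669 in Stromalin KD 1 and 0 elsewhere. Slimp, a relative of SerRS-m in the mitochondrion, also had 0 counts throughout. Gcn2, the kinase that senses uncharged tRNA, had 0, 884 and 648 counts in control, against 1065, 617 and 0 in Stromalin KD. Its downstream transcription factor crc, the fly ATF4, had 0, 1248 and 0 in control, against 732, 5 and 0 in Stromalin KD. Each of these groups overlapped.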

How the data were processed

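RNA-seq of 3 control and 3 Stromalin KD libraries was used, grouped by genotype as labeled. Raw counts were deposited by the authors as whole numbers for each gene. HTSeq 0.9.1, DESeq2 and BDGP6 are named in the submitters' processing notes, with aligner, strandedness and molecular identifiers not given in the sources used here. In addition, the authors deposited a signal per gene, the counts after DESeq2 size factors, and TPM per library. A deposited table of the authors' own comparison (log2 fold changes, p-values) was not used. Library preparation included depletion of rRNA, and 25 neurons per library required amplification, so reads are not independent molecules and floors of 3 counts cover counting error only.

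Counts were compared in edgeR 4.0.16 (R 4.3.3): 4093 genes reaching 10 counts in 2 or more libraries, TMM scaling, quasi-likelihood test, Benjamini-Hochberg adjustment over all of them, two-sided, threshold 0.05. DESeq2 1.42.0 and limma 3.58.1 were alternatives. Fold changes of genes at 0 in a group depend on the prior count and are no bounds. Exact permutation tests of TMM-normalized CPM reach no p under 0.1 with 3 against 3. No label ties replicates to separate cultures beyond the collection day, and p-values measure the spread between these libraries. Replicate numbers share no day, so no pairing was used. Coordinates come from the Ensembl annotation of BDGP6, which named all 33 genes.

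The members, the other gene lists and the tests were chosen with earlier results of these data known. Full values were given to members with an unadjusted p under 0.05 in edgeR or called by DESeq2, to those found in at least 5 libraries, and to the 3 cytosolic and 3 mitochondrial genes of highest mean TPM; others were named for an amino acid pair, an extreme or an overlap, after their values were seen. Alternatives were RLE factors, total counts only, rRNA genes left out, other filters on counts, a block for replicate number, limma-trend on log2(TPM + 1), other detection limits, and leaving out each library. The edgeR steps were also tested on simulated data. With a dispersion of 0.1 all 100 genes changed 4-fold were recovered among 4093, with 4 false calls; at the dispersions of these libraries 0 of 100 changed 4-fold and 4 of 100 changed 16-fold were.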

Additional observations from a re-analysis of the deposited data

How the results depend on the processing

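Over all genes, edgeR called 2 genes, and 0 with total counts only, with rRNA genes left out or with 10 counts required in 3 libraries, 1 with a filter of 1 count in 1 library, 160 in DESeq2, 4 in limma-trend on log2(TPM + 1), and 0 to 3 when each library was left out. The count of synthetases with an unadjusted p under 0.05 went from 4 to 2 (GlyRS and SerRS-m) under either of these 2 other filters, to 0 in limma-trend, and to 0 to 3 without each library, 0 without Stromalin KD 3. With the replicate number as a block, edgeR called 1 gene, 1 synthetase (SerRS-m) had an unadjusted p under 0.05 and GluProRS had a log2 fold change of -1.04; deviations of same-numbered libraries did not go together (correlations of -0.02, -0.01 and 0.02), so the block reflects a shared number only. The fold change of GluProRS was also negative in limma-trend, at -1.13, and ran from -2.00 to 2.11 without each library, while that of ThrRS ran from -1.02 to 8.50. The other 6 named synthetases kept their direction under each alternative that could be fitted; without each library their log2 fold changes ran from 10.49 to 14.43 (SerRS-m), 7.52 to 11.80 (ValRS-m), 7.18 to 13.93 (GlyRS), -3.78 to -1.35 (AspRS-m), -12.79 to -10.67 (AspRS) and -13.04 to -12.26 (CysRS-m). The cause of the turns was not tested. The fold bounds without a library were added after seeing the data. Detection at 1 count, at 100 counts or at 1 TPM found 48.1%, 26.9% and 40.7% of cytosolic pairs and 33.3%, 22.2% and 28.9% of mitochondrial ones. Leaving out each library, added after seeing the data, gave 28.9% to 41.1% and 28.0% to 33.3%. The ratio of cytosolic to mitochondrial sums had a median of 1.34 with normalized counts, and 1.94 without the highest gene of each class; a median over genes gave no ratio, since it was 0 in the mitochondrial class in every library. With a common coefficient of variation of 228%, these libraries limit what can be told of any single synthetase.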
